A study of Mus musculus with 9 samples.

Results

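Peroxiredoxins, superoxide dismutases, catalase and glutathione peroxidases are the enzymes that remove superoxide and peroxides inside the cell. Here 10 of their genes, of 54532 genes in the table, were followed by name, namely Prdx1, Prdx3, Prdx4, Prdx5, Prdx6, Sod1, Sod2, Cat, Gpx1 and Gpx4. They were picked by name and not by their measured values, though earlier results of these data were known at that time. Liver RNA of male C57BL/6 mice aged 5 to 7 weeks was sequenced, with 3 control mice (NC), 3 mice that received 500 mg/kg acetaminophen (APAP) and 3 mice that received the same dose together with adipose-derived mesenchymal stem cells (AMSC). The cells had been grown from inguinal fat of C57BL/6 mice, and livers were taken 6 h after APAP. Mice given APAP were fasted overnight beforehand, whereas whether the NC mice were fasted too is not given in the sources used here. The unit was FPKM (fragments scaled to gene length and to library size), and 13418921 to 16210930 reads per library fell on genes. No source used here gives the litters or cages of the mice, and p-values measure the spread between these livers only.

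Superoxide that leaks from the respiratory chain is turned into hydrogen peroxide by a manganese dismutase in the mitochondrial matrix (Sod2) and a copper and zinc dismutase in the cytosol (Sod1). Hydrogen peroxide is then reduced by peroxiredoxins, most of which take electrons from thioredoxin, or by glutathione peroxidases with electrons from glutathione. It is also split by catalase in the peroxisome. In APAP overdose a reactive metabolite made by cytochrome P450 enzymes depletes glutathione and binds mitochondrial proteins, which makes these enzymes a recurrent subject in this tissue. The question was how their transcripts differed between NC, APAP and AMSC livers, and whether mitochondrial enzymes differed from cytosolic and peroxisomal ones.

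The 7 peroxidases with a reactive cysteine or selenocysteine each carry it in one codon, given here as 33 coding bases of GRCm38 (GENCODE vM21) with that codon in capitals, because the chemistry that separates the families lies there. In Prdx1 to Prdx6 the codon is TGT or TGC, for the cysteine that attacks the peroxide, and in Gpx1 and Gpx4 it is TGA, a stop codon that is read as selenocysteine.
Prdx1: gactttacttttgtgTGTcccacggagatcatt
Prdx3: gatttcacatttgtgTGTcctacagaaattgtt
Prdx4: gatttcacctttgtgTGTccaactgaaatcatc
Prdx5: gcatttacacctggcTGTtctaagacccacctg
Prdx6: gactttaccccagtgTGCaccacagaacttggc
Gpx1: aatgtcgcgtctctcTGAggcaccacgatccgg
Gpx4: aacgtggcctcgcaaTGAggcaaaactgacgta
The codon of Prdx1 lies at chr4:116691823-116691825 on the plus strand in exon 3 of 6 (residue 52), and that of Prdx3 at chr19:60870127-60870129 on the minus strand in exon 4 of 7 (residue 109). The codon of Gpx1 lies at chr9:108339451-108339453 in exon 1 of 2 (residue 47), and that of Gpx4 at chr10:80054737-80054739 in exon 3 of 7 (residue 73), both on the plus strand. Prdx1, Prdx3 and Prdx4 look alike around the codon, but their transcripts share no run over 18 bases, so that short reads could be told apart between them. The exception was Gpx4, which shared a run of 314 bases with its pseudogene Gpx4-ps2, listed at 51.9 ± 7.09 FPKM in NC livers (SD, n = 3), and the levels of Gpx4 are uncertain for this reason. Sod1 overlaps Scaf4 on the other strand by 650 bases and Prdx5 overlaps Trmt112 on the other strand by 409 bases, and no use of strand in counting is given in the sources used here, so these genes are uncertain as well.

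All 10 genes were abundant and passed the filter on low values (1 FPKM or more on average over the livers), with at least 996 reads on each gene in each library. Gpx1, the main cytosolic glutathione peroxidase with a share in mitochondria, led the list at a mean of 1536 FPKM over the 9 livers. Cat, the peroxisomal catalase, followed at 907 FPKM. Next came Prdx1, a cytosolic peroxiredoxin, at 298 FPKM and Sod1 at 189 FPKM. Gpx4, which reduces lipid peroxides in membranes, stood at 149 FPKM, Prdx5 of mitochondria, cytosol and peroxisomes at 119 FPKM and the cytosolic Prdx6 at 107 FPKM. The mitochondrial Prdx3 had 67.6 FPKM, Prdx4 of the endoplasmic reticulum 45.6 FPKM and the mitochondrial Sod2 19.1 FPKM. Thus both enzymes that reside in mitochondria alone were in the lower part of the order. Over the 9 livers, the values of neighbors overlapped from Prdx1 down to Prdx6, while Gpx1, Cat, Prdx3, Prdx4 and Sod2 each stood clear of their neighbors. The order depends on the gene length used by the authors, which for Sod1 was 3970 bases against 641 bases in its longest coding transcript. With the latter lengths, Sod1 stood at 1169 FPKM, second to Gpx1 at 2065 FPKM, and Sod2 was again last at 32.7 FPKM.

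**Figure D1:**
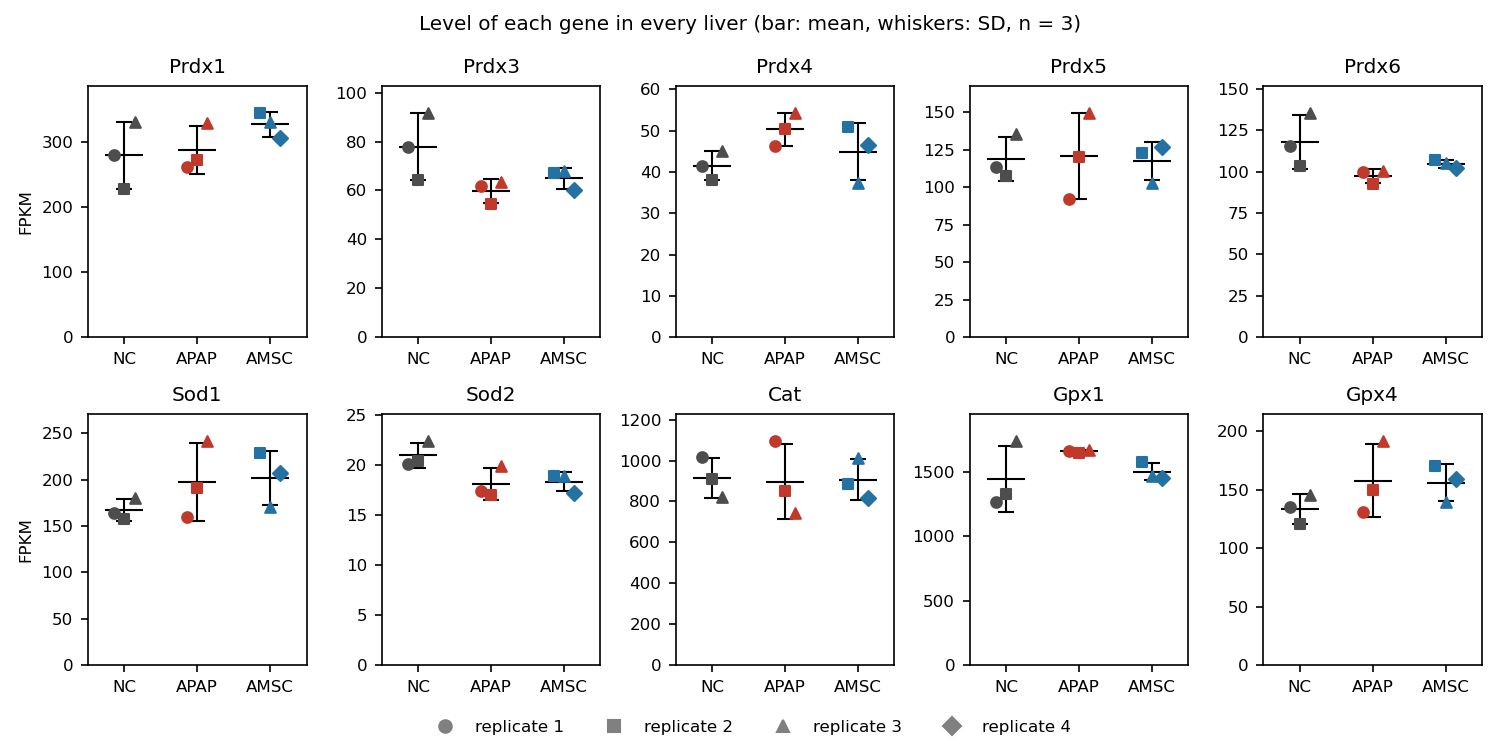
FPKM of each of the 10 genes in the 9 livers, on linear axes that start at 0, with points for livers and marker shapes for replicate numbers. Bars give group means and whiskers the SD (n = 3); Sod2, Prdx3 and Prdx6 of APAP livers lie below those of NC livers, and Prdx4 above.

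The comparison of APAP with NC asks how the transcripts of these enzymes responded to the overdose. None of the 10 genes changed in either direction by the limma test at an adjusted p of 0.05 over all genes tested (0 also at an unadjusted p under 0.05), in a comparison in which 12.8% of the 9699 genes tested were called higher and 13.1% lower. With a log2 fold change of at least 1 as a further condition, 7.9% of genes were differentially expressed genes (DEGs), again with none of the 10 among them. The median log2 fold change was 0.03 over the 10 genes, 6 of which had a positive and 4 a negative sign, against -0.0043 over all genes tested.

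Prdx3, the thioredoxin-dependent peroxidase of the mitochondrial matrix, had the largest difference of the 10 with all livers included. It measured 77.8, 64.2 and 91.7 FPKM in NC livers and 61.6, 54.4 and 63.5 FPKM in APAP livers. All APAP values lay below all NC values, though the lowest NC liver and the highest APAP liver nearly met. The log2 fold change was -0.36 (SE 0.16, 95% interval -0.73 to 0.0021, limma adjusted p = 0.130). Without NC replicate 3 it was -0.24, smaller than that of Gpx1 (0.35) and Prdx4 (0.33). Sod2 measured 20.1, 20.4 and 22.4 FPKM in NC livers and 17.4, 17.0 and 19.9 FPKM in APAP livers, also without overlap. Its log2 fold change was -0.21 (95% interval -0.48 to 0.07, limma adjusted p = 0.241). Among all genes, 22.3% had every APAP liver below every NC liver, so the lack of overlap is not read as a result about these 2 genes.

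Cytosolic enzymes took no common direction. Prdx6, a peroxidase that also acts on phospholipids, was 115, 103 and 136 FPKM in NC livers and 99.8, 92.6 and 100.3 FPKM in APAP livers. The groups did not overlap, and the log2 fold change was -0.27 (95% interval -0.58 to 0.05, limma adjusted p = 0.193), and -0.16 without NC replicate 3. Prdx1 was 280, 227 and 330 FPKM in NC and 260, 272 and 329 FPKM in APAP livers, which overlapped over most of their range. Its log2 fold change was 0.05 (95% interval -0.35 to 0.46, limma adjusted p = 0.846). Sod1 was 164, 157 and 180 FPKM in NC livers and 159, 191 and 242 FPKM in APAP livers. Its log2 fold change was 0.22 (95% interval -0.18 to 0.62, limma adjusted p = 0.385), and 0.06 without APAP replicate 3, the highest of these livers.

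Prdx4, which serves oxidative protein folding in the endoplasmic reticulum, was the only one of the 10 with all APAP livers above all NC livers. It measured 41.5, 38.1 and 44.9 FPKM in NC livers and 46.3, 50.4 and 54.3 FPKM in APAP livers. The log2 fold change was 0.27 (95% interval -0.02 to 0.56, limma adjusted p = 0.150). Non-overlapping groups were common in the table, at 20.9% of genes with APAP higher, so that neither this gene nor the 3 that were lower are read as a result about the 10. Cat was 1015, 910 and 822 FPKM in NC and 1098, 853 and 741 FPKM in APAP livers. Its groups overlapped throughout, with a log2 fold change of -0.04 (95% interval -0.45 to 0.37, limma adjusted p = 0.876).

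None of the 3 enzymes found in several compartments passed the test. Gpx1 was 1267, 1330 and 1743 FPKM in NC and 1659, 1648 and 1673 FPKM in APAP livers, and its log2 fold change was 0.21 (95% interval -0.14 to 0.57, limma adjusted p = 0.344), against 0.12 without NC replicate 1. The APAP livers were close together (SD 12.6 FPKM) and the NC livers wide apart (SD 258 FPKM), with NC replicate 3 above all of them. Gpx4 measured 135, 121 and 145 FPKM in NC and 131, 150 and 192 FPKM in APAP livers (log2 fold change 0.22, limma adjusted p = 0.364, and 0.07 without APAP replicate 3). Prdx5 was 113, 107 and 136 FPKM in NC and 92.4, 120 and 149 FPKM in APAP livers, with a log2 fold change of 0.0040 (95% interval -0.45 to 0.45, limma adjusted p = 0.989). Over the 10 genes the 95% intervals reached from -0.73 to 0.62, so each excluded a log2 fold change of 1 in either direction. The intervals cover the spread between livers only, under the authors' scaling.

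The scaling of libraries bears on these values. The authors scaled libraries by median-of-ratios size factors, which sets the median gene near 0. When libraries were scaled to their summed reads instead, the median over all genes moved to -0.22, and the share of higher genes among those called fell to 23.7% from 49.4%. Prdx3 (-0.62, limma adjusted p = 0.0199), Prdx6 (-0.52, limma adjusted p = 0.0236) and Sod2 (-0.45, limma adjusted p = 0.0290) were then called lower, and Prdx1, Prdx5, Sod1, Gpx1 and Gpx4 turned to a negative sign without a call. In that setting 27.3% of all genes were called lower, so 3 of 10 is near the background. Whether these 3 genes count as changed thus depends on the scaling.

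**Figure D2:**
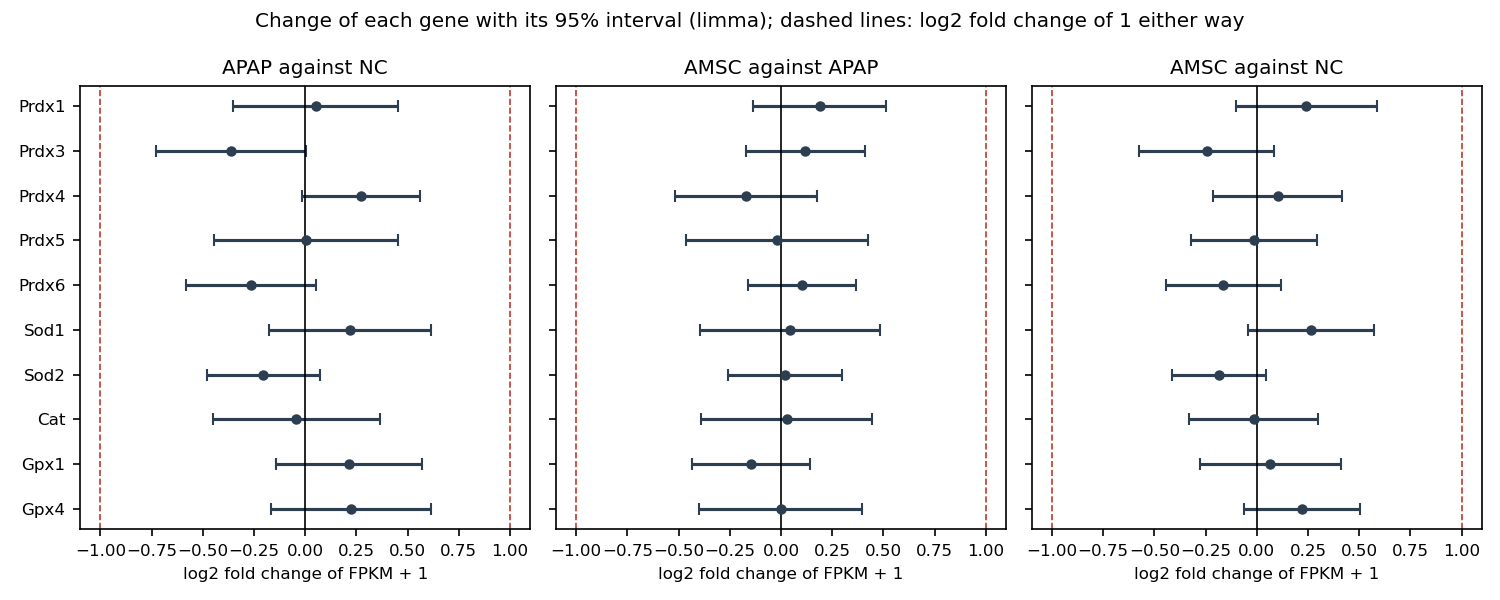
Log2 fold change of FPKM + 1 (horizontal axis) for the 10 genes (rows) in the 3 comparisons, with points for the limma estimate and whiskers for the 95% interval (3 livers per group). Every interval includes 0, and none reaches the dashed lines at a log2 fold change of 1 in either direction.

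A ratio of 2 genes within one liver does not depend on how the library was scaled. The ratio of Prdx3 to Prdx1 was 0.278, 0.283 and 0.278 in NC livers. It was 0.237, 0.200 and 0.193 in APAP livers and 0.195, 0.206 and 0.196 in AMSC livers. All 6 livers given APAP lay below all 3 NC livers, whose values differed by little (0.280 ± 0.0031, SD, n = 3), and the mean of APAP livers was 0.750 times that of NC livers. The ratio of Sod2 to Sod1 was 0.123, 0.130 and 0.125 in NC livers, 0.109, 0.0892 and 0.0822 in APAP livers and 0.0827, 0.111 and 0.0832 in AMSC livers. Here, too, the livers given APAP lay below the NC livers, at 0.745 times (APAP) and 0.734 times (AMSC) the NC mean. The longest coding transcript was 5861 bases for Sod2 and 641 bases for Sod1, and livers also differed by transcript length, as described below. The part of length in this ratio was not tested. Catalase against Gpx1 showed no such separation, with ratios of 0.801, 0.684 and 0.472 in NC livers and 0.661, 0.518 and 0.443 in APAP livers. AMSC livers had ratios of 0.561, 0.691 and 0.561 for this pair. Gpx1 is found in several compartments, and no ratio of a mitochondrial gene to Cat was computed. Mitochondrial and peroxisomal genes were thus compared only through their single levels. The separation depended on the cytosolic partner. Prdx6, the other cytosolic peroxiredoxin, gave ratios of Prdx3 to Prdx6 of 0.674, 0.621 and 0.677 in NC livers, 0.618, 0.587 and 0.633 in APAP livers and 0.628, 0.645 and 0.588 in AMSC livers, which overlapped. Of the 6 pairs of a mitochondrial gene (Prdx3 or Sod2) and a cytosolic gene (Prdx1, Prdx6 or Sod1), a set added after the data had been seen, 4 were lower in all APAP livers than in all NC livers, and both pairs with Prdx6 overlapped. The count was also 4 of 6 for AMSC against NC. For AMSC against APAP, 1 of 6 was lower in all AMSC livers (Sod2 to Prdx1) and 5 overlapped. The 6 pairs share their genes. The share of other gene pairs that separate in this way was not computed, so these counts are not read as a result about mitochondrial genes. These ratios are described without a test, and each is a ratio of transcript levels, not of enzymes.

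**Figure D3:**
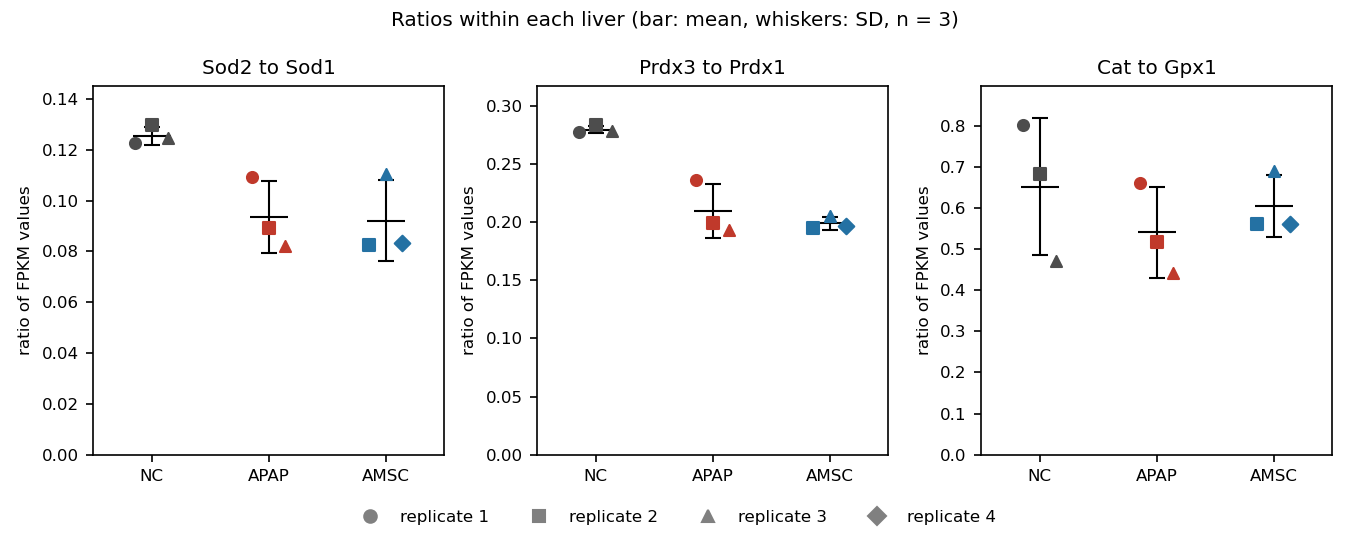
Ratio of FPKM values within each of the 9 livers (vertical axes start at 0) for Sod2 to Sod1, Prdx3 to Prdx1 and Cat to Gpx1, with bars for group means and whiskers for the SD (n = 3). For Prdx3 to Prdx1, NC livers sit at 0.278 to 0.283 and the livers given APAP at 0.193 to 0.237, while the groups overlap for Cat to Gpx1 (and for Prdx3 to Prdx6, not drawn).

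The comparison of AMSC with APAP asks what the cells changed in mice given the same dose. None of the 10 genes changed by the limma test, with 0 also at an unadjusted p under 0.05, in a comparison that called 1.64% of all genes higher and 2.14% lower and 1.96% as DEGs. The median log2 fold change of the 10 was 0.02, against 0.01 over all genes. Gpx1 measured 1578, 1469 and 1456 FPKM in AMSC livers, all below the APAP livers, with a log2 fold change of -0.15 (95% interval -0.44 to 0.14, limma adjusted p = 0.567). Prdx6 measured 107, 105 and 102 FPKM in AMSC livers, all above the APAP livers, with a log2 fold change of 0.10 (95% interval -0.16 to 0.37, limma adjusted p = 0.676). Among all genes, 14.6% had AMSC livers above and 12.4% below all APAP livers, so 1 of 10 in each direction is close to the background.

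The mitochondrial enzymes were near their APAP levels in AMSC livers. Prdx3 measured 67.2, 67.9 and 60.0 FPKM, for a log2 fold change of 0.12 against APAP (95% interval -0.17 to 0.41, limma adjusted p = 0.655). Sod2 measured 18.9, 18.9 and 17.2 FPKM, for a log2 fold change of 0.02 (95% interval -0.26 to 0.30, limma adjusted p = 0.948). The other genes overlapped between the groups. Prdx1 was 344, 330 and 306 FPKM in AMSC livers, the highest mean of the 3 groups, and its log2 fold change of 0.19 had a 95% interval of -0.14 to 0.51 (limma adjusted p = 0.497). Prdx4 at 50.8, 37.3 and 46.4 FPKM had a log2 fold change of -0.17 (95% interval -0.52 to 0.18, limma adjusted p = 0.577). Cat at 886, 1015 and 818 FPKM, Sod1 at 228, 171 and 207 FPKM, Gpx4 at 170, 139 and 159 FPKM and Prdx5 at 123, 103 and 127 FPKM had log2 fold changes between -0.02 and 0.05. The 95% intervals over the 10 genes reached from -0.52 to 0.51, so smaller shifts in either direction could not be seen with 3 livers per group.

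AMSC was also compared with NC, which shares the control livers with the first comparison. Again none of the 10 genes changed by the limma test (0 at an unadjusted p under 0.05), where 14.1% of all genes were called higher, 11.9% lower and 6.01% as DEGs. Sod2 alone had groups that did not overlap, with all AMSC livers lower, a log2 fold change of -0.18 and a 95% interval of -0.41 to 0.05 (limma adjusted p = 0.212). Non-overlapping groups made up 20.3% of all genes with AMSC lower and 23.2% with AMSC higher. Prdx3 had a log2 fold change of -0.24 (95% interval -0.57 to 0.08, limma adjusted p = 0.246, and -0.12 without NC replicate 3), Prdx1 of 0.24 (95% interval -0.10 to 0.59, limma adjusted p = 0.272) and Sod1 of 0.26 (95% interval -0.04 to 0.57, limma adjusted p = 0.186). With libraries scaled to summed reads, the median gene moved to -0.14 and the share of higher genes among those called fell to 29.5% from 54.2%. Sod2 (-0.37, limma adjusted p = 0.0285) and Prdx3 (-0.44, limma adjusted p = 0.0421) were then called lower, as were 22.4% of all genes, so 2 of 10 is near the background.

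Livers of one group differed from each other in a pattern common to most of the 10 genes. NC replicate 3 and APAP replicate 3 were each the highest of their group for 9 of the 10 genes, and Cat was lowest in both. Over the deviations of the 9 livers from their group means, all 36 pairs among the 9 genes other than Cat had a positive correlation, with Pearson's r from 0.25 to 0.97 and a median of 0.63. Cat was negative with all 9, from -0.94 (Prdx5) to -0.05 (Prdx3). These correlations are a description over 9 livers that share library preparation and scaling. The same counts and correlations were not computed over other genes, so the pattern is not read as particular to the 10. Transcript length moved with the same livers. In APAP replicate 3 the median deviation was 0.21 on the log2 scale for 1456 genes with a coding transcript under 1500 bases and -0.16 for 1561 genes over 5000 bases, and in APAP replicate 1 it was -0.17 and 0.12. NC replicate 3 had 0.11 and -0.16. The part of transcript length in the members' deviations was not tested. NC replicate 3 also carries another date in its title than the other 8 libraries, and the number 1 there (replicate 3 is from its description), and as the only such library it gives no within-date comparison. Once the trend with length had been removed from each library, a setting chosen after the deviations had been seen, Prdx4 was called higher in APAP than in NC (0.29, limma adjusted p = 0.0482) and Sod1 higher in AMSC than in NC (0.28, limma adjusted p = 0.0338). No other of the 10 genes was called in this setting.

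**Figure D4:**
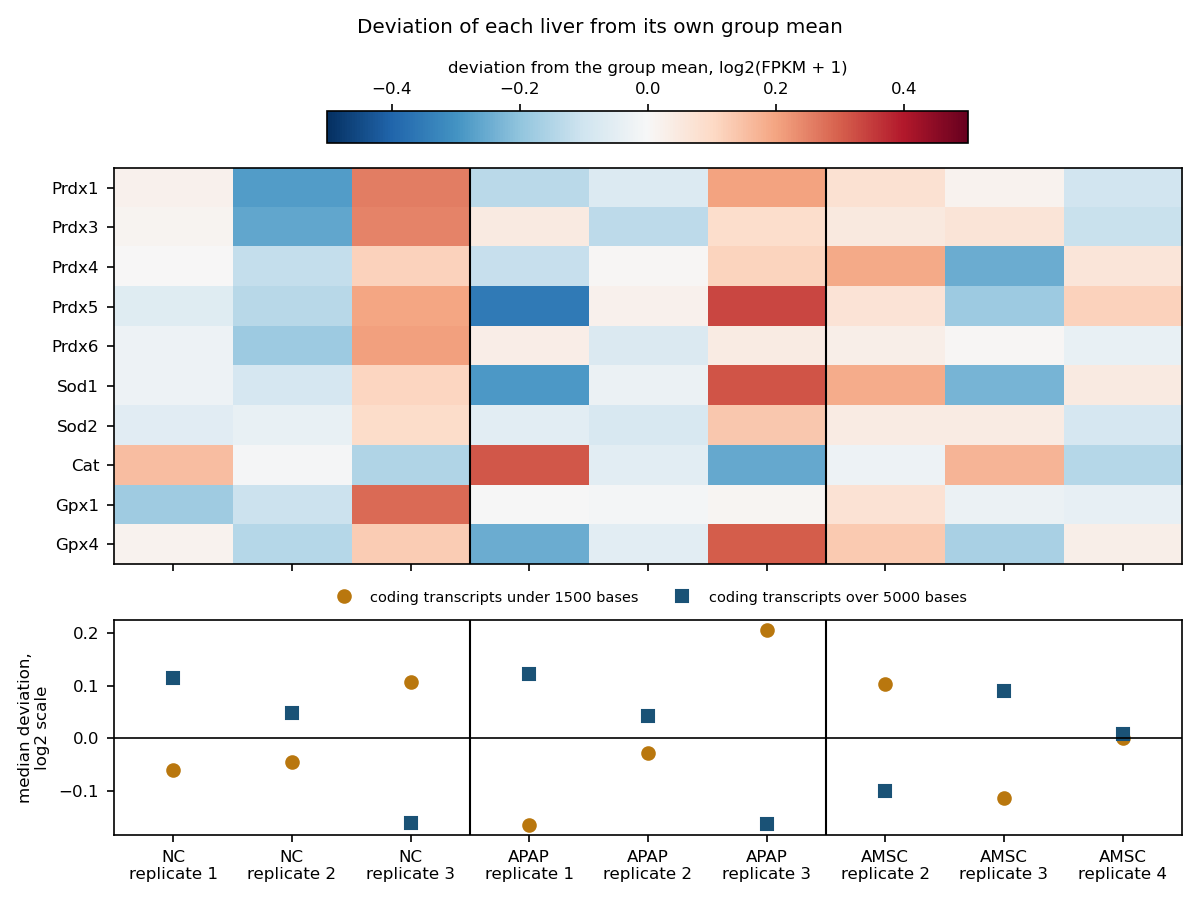
Deviation of each liver (columns) from the mean of its own group on the log2(FPKM + 1) scale for the 10 genes (upper panel, color scale above), and the median deviation of all genes with short (under 1500 bases) and long (over 5000 bases) coding transcripts (lower panel). In NC replicate 3 and APAP replicate 3 the 10 genes other than Cat and the short transcripts are high together.

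The genes whose levels over the 9 livers most resembled those of a member, by Pearson's r of log2(FPKM + 1), are given as a description. For Sod2 they were Apip (r = 0.95), Gm20300 (0.95) and Gm15387 (0.95), and for Cat they were Parg (0.96), Numb (0.96) and Npc1 (0.95). For Prdx1 they were Psma3 (0.96), Hmox2 (0.93) and Gm21399 (0.92), and for Gpx1 Nptn (0.96), Cisd2 (0.95) and Gpihbp1 (0.93).

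Among the relatives of the 10 genes, the extracellular enzymes stood apart. Of 9 other genes of the families, 4 passed the filter, and 2 rose in APAP against NC, where 12.8% of all genes were called higher. Gpx3, the secreted glutathione peroxidase, rose from 2.67 ± 0.27 to 6.65 ± 1.72 FPKM (SD, n = 3; log2 fold change 1.04, limma adjusted p = 0.00477), and Sod3, the extracellular dismutase, rose from 7.18 ± 1.60 to 13.1 ± 2.72 FPKM (log2 fold change 0.79, limma adjusted p = 0.0230). In AMSC against NC, Gpx3 was higher (0.75, limma adjusted p = 0.00423), while Sod3 had 0.32 (limma adjusted p = 0.294). Prdx2, the abundant peroxiredoxin of red blood cells, was 36.9 FPKM in NC, 38.7 FPKM in APAP and 32.9 FPKM in AMSC livers and was not called. Gpx2 of the gut epithelium was near 0 in all groups. With libraries scaled to summed reads, 1 of the 4 rose and 1 fell in APAP against NC. Markers of blood, endothelial cells and macrophages were summed in the same livers, and of these only the erythroid sums did not overlap between NC and APAP. Erythroid markers had a summed level of 135 to 254 FPKM in NC, 306 to 1406 FPKM in APAP and 183 to 312 FPKM in AMSC livers, with 4 of 5 tested called higher in APAP against NC. Endothelial markers summed to 22.7 to 48.6, 27.7 to 73.0 and 25.3 to 26.2 FPKM, respectively (1 of 8 called higher), and macrophage markers to 111 to 210, 166 to 413 and 99.0 to 162 FPKM (2 of 11). Over all genes, 12.8% were called higher. The part of these cell types in the rise of Gpx3 and Sod3 was not tested. In bulk liver, fewer cells of a type and less RNA per cell cannot be told apart.

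The lists drawn up for the thioredoxin and glutathione systems held genes that rose, though the thioredoxins Txn1 and Txn2 were not among them. Of 12 genes of the thioredoxin system, 4 rose and none fell in APAP against NC, with a list median of 0.17. Over all genes, 12.8% were called higher and 13.1% lower in APAP against NC, and 14.1% and 11.9% in AMSC against NC. These shares are the background for each list below as well. Srxn1, the sulfiredoxin that repairs over-oxidized peroxiredoxins, rose from 14.7 ± 2.67 FPKM in NC to 192 ± 134 FPKM in APAP livers (SD, n = 3; log2 fold change 3.27, SE 0.60, limma adjusted p = 0.00762) and stood at 149 ± 58.3 FPKM in AMSC livers. Sesn2, a stress-induced sestrin, rose from 1.31 to 13.6 FPKM (log2 fold change 2.64, limma adjusted p = 0.000122). Txnip, which binds and inhibits thioredoxin, rose from 11.2 to 43.0 FPKM (1.95, limma adjusted p = 0.00366). The other called gene was Txnrd1, the cytosolic thioredoxin reductase (from 20.9 to 51.7 FPKM, limma adjusted p = 0.0130), which was named after its value was seen. Not called were the mitochondrial thioredoxin Txn2 (log2 fold change -0.28, limma adjusted p = 0.122) and the mitochondrial reductase Txnrd2 (-0.16, limma adjusted p = 0.392). The cytosolic thioredoxin Txn1 was not called either (-0.085, limma adjusted p = 0.798). These genes were likewise picked out for their site after the fact. Srxn1, Sesn2, Txnip and Txnrd1 were also called higher in AMSC against NC, and no gene of the list was called in AMSC against APAP. With libraries scaled to summed reads, 4 genes of the list rose and 2 fell in APAP against NC, against 8.46% and 27.3% of all genes.

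Of 8 genes of the glutathione system tested, 3 rose and none fell in APAP against NC (list median 0.27). Gclc, the catalytic subunit of the enzyme that limits glutathione synthesis, rose from 42.5 ± 10.2 to 189 ± 93.4 FPKM (log2 fold change 2.03, limma adjusted p = 0.00575). Gsr, which regenerates reduced glutathione, rose from 24.2 ± 1.18 to 44.1 ± 7.09 FPKM (0.83, limma adjusted p = 0.00644), and the modifier subunit Gclm rose from 34.6 to 45.8 FPKM (0.40, limma adjusted p = 0.0415). In AMSC against NC, 4 of 8 were called higher, led by Gclc at 252 ± 99.1 FPKM (2.50, limma adjusted p = 0.000535), and in AMSC against APAP none was called. With libraries scaled to summed reads, 2 of the 8 rose and 2 fell in APAP against NC, against 8.46% and 27.3% of all genes. Thus Srxn1, Gclc and Gsr, which repair or supply the peroxidases, had higher transcript levels in livers in which no change of the peroxidases themselves was called. The difference between these lists was not tested.

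The promoter of Srxn1 is shown beside that of Prdx1, as the 2 genes act on the same cysteine and only Srxn1 was called. RefSeq start sites on GRCm38.p6 were matched for 9 of the 10 genes. The 250 bases before each start were searched on both strands for TGACNNNGC and TGANTCA (the AP-1 motif), which can overlap. TGACNNNGC is a form of the core of the antioxidant response element, and no other form was searched. Matches are in capitals.
Prdx1: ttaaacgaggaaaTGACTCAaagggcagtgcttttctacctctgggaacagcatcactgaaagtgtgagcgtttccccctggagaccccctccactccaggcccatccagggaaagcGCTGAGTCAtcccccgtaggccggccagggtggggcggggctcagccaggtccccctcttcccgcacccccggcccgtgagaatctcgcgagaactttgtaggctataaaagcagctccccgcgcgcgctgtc
Srxn1: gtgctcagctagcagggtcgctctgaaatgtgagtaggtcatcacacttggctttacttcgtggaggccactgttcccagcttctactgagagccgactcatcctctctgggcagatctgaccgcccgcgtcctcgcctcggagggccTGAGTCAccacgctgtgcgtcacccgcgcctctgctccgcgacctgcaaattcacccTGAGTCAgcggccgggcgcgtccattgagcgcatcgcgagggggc
These windows are chr4:116685349-116685598 for Prdx1 and chr2:152105274-152105523 for Srxn1, both on the plus strand. Prdx1 held 1 match of TGACNNNGC, 133 bases before the start, which overlapped the second of its 2 matches of TGANTCA. Srxn1 held 2 matches of TGANTCA, 102 and 45 bases before the start, and none of TGACNNNGC. The match at 45 bases runs on into GC and reads TGAGTCAGC, with G where TGACNNNGC has C. The search did not count it, so the windows do not show that Srxn1 lacks the element. Of the 9 genes with a promoter, 2 held TGACNNNGC (Prdx1 and Sod1), against 10.16% of 32851 promoters, and 1 held TGANTCA (Prdx1), against 6.75%. A match describes the letters in these windows and is not evidence that a factor binds there.

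NADPH, which both systems consume, comes from several dehydrogenases. Of 10 genes of its supply tested, 2 rose and 1 fell in APAP against NC, near the 12.8% and 13.1% of all genes. Pgd of the pentose phosphate pathway rose from 4.17 to 7.45 FPKM (0.68, limma adjusted p = 0.0269) and G6pdx from 0.825 to 1.42 FPKM (0.41, limma adjusted p = 0.0362), whereas Nadk, the cytosolic NAD kinase, fell from 53.8 to 38.0 FPKM (log2 fold change -0.49, limma adjusted p = 0.0357). In AMSC against NC, Pgd was higher (0.79, limma adjusted p = 0.00254) and the mitochondrial kinase Nadk2 lower (-0.50, limma adjusted p = 0.0130). Scaling to summed reads gave none higher and 4 lower in APAP against NC, where 27.3% of all genes were called lower.

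Of 12 genes for metal and selenium supply, 1 rose and 2 fell in APAP against NC, near the 12.8% and 13.1% of all genes. Sepsecs, which makes the tRNA-bound selenocysteine that Gpx1 and Gpx4 need at their TGA codon, fell from 9.87 ± 0.90 to 4.39 ± 0.67 FPKM (SD, n = 3; log2 fold change -1.02, limma adjusted p = 0.00210) and was at 6.04 ± 0.62 FPKM in AMSC livers. The copper importer Slc31a1 fell from 43.4 to 29.2 FPKM (log2 fold change -0.57, limma adjusted p = 0.0230), and the manganese exporter Slc30a10 rose from 3.88 to 5.90 FPKM (0.49, limma adjusted p = 0.0376). Scaled to summed reads, none of the 12 rose and 4 fell, where 27.3% of all genes were called lower. In AMSC against NC, 1 gene was higher, the zinc and manganese importer Slc39a14 (1.55, limma adjusted p = 0.000530), and 3 were lower, among them Slc31a1 (-0.75, limma adjusted p = 0.00198) and Sepsecs (-0.63, limma adjusted p = 0.00611).

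Peroxisomes hold both Cat and the oxidases that make its substrate. In APAP against NC, 2 of 8 oxidase genes fell, Ddo from 2.17 to 0.749 FPKM (log2 fold change -0.86, limma adjusted p = 0.00236) and Hao1 from 112 to 76.7 FPKM (-0.54, limma adjusted p = 0.0423), and none rose. Of 17 genes of peroxisome biogenesis, 3 fell (Pex10, Pex26 and Pex2, by log2 fold changes of -0.82, -0.80 and -0.69, limma adjusted p = 0.00470, 0.00447 and 0.00609), none rose, and the list median was -0.32. Over all genes, 13.1% were called lower in this comparison. The other 6 oxidase and 14 biogenesis genes tested were not called, and Cat lay between 741 and 1098 FPKM over the 9 livers. In AMSC against NC, 1 oxidase was higher and 3 were lower (Ddo, Hao1 and Paox, at -1.04, -0.93 and -0.75), and of the biogenesis genes 1 was higher (Pex16, 0.73, limma adjusted p = 0.00831) and 2 lower (Pex11g and Pex2). No gene of either list was called in AMSC against APAP, where 15 of the 17 biogenesis genes had a positive sign and the list median was 0.20. Under scaling to summed reads, 5 oxidase and 9 biogenesis genes were called lower in APAP against NC and 6 and 5 in AMSC against NC. The shares of all genes called lower were then 27.3% and 22.4%.

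Mitochondria as a whole were gauged by 17 enzymes of the citric acid cycle and 13 genes of the mitochondrial genome. Over the former, the log2 fold changes in APAP against NC had a median of 0.0012, with 9 positive and 8 negative signs. Idh3a, a subunit of the NAD-dependent isocitrate dehydrogenase, was the only one called. It fell from 11.8 ± 0.81 FPKM in NC to 4.35 ± 0.59 FPKM in APAP livers (SD, n = 3; log2 fold change -1.26, limma adjusted p = 0.000603) and was at 8.72 ± 1.46 FPKM in AMSC livers. It was also the only gene of the non-marker lists called in AMSC against APAP (0.86, limma adjusted p = 0.0292). In AMSC against NC, citrate synthase (Cs) was the gene called (higher, with a log2 fold change of 0.40, limma adjusted p = 0.0209). Of the 13 mitochondrially encoded genes, mt-Nd6 alone was called in APAP against NC (0.85, limma adjusted p = 0.0127; with quantile normalization none was called higher and 2 lower, and with summed reads 1 higher and 1 lower), and reads of mt-Nd6 and of the genes on the other strand cannot be told apart without strand. The list median was 0.36 in APAP against NC and -0.50 in AMSC against APAP.

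**Figure D5:**
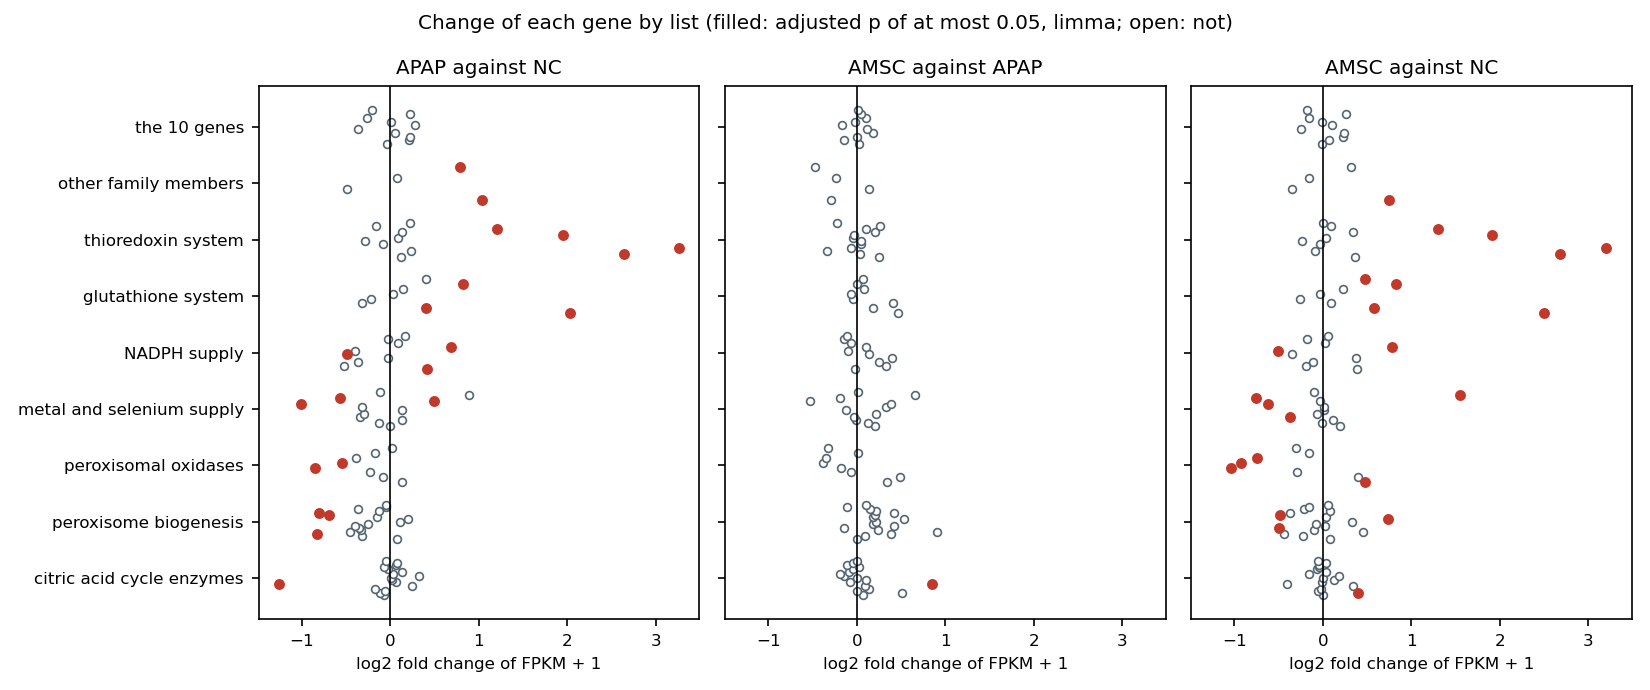
Log2 fold change of FPKM + 1 (horizontal axis) of each gene tested, by list (rows), in the 3 comparisons, with filled points for genes called by limma at an adjusted p of at most 0.05 and open points for the others. The 10 genes lie between -0.36 and 0.27 without a filled point, while Srxn1 reaches 3.27 in the thioredoxin row of APAP against NC.

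Cell type markers give the setting of these values. The hepatocyte list was present in all livers, and no hepatocyte marker was at 0. Pericentral hepatocyte markers, which include the enzymes that activate APAP, summed to 4791 to 5922 FPKM in NC, 564 to 2533 FPKM in APAP and 4476 to 4797 FPKM in AMSC livers. In APAP against NC, 6 of 7 tested fell, and in AMSC against APAP 5 of 7 rose. In AMSC against NC, 4 of 7 were called lower, so the sums do not stand for the whole list. Cyp2e1 held a large part of them, at 3408, 847 and 3619 FPKM in NC, APAP and AMSC livers. Cyp1a2 was at 755, 376 and 247 FPKM. Periportal markers rose in 6 of 8 cases in APAP against NC, and 3 of 8 fell in AMSC against APAP. Neutrophil markers summed to 0.355 to 1.92 FPKM in NC, 7.69 to 34.8 FPKM in APAP and 4.58 to 6.08 FPKM in AMSC livers, where 7 of 10 were under the filter, Camp was at 0 in all livers, Mpo and Ngp in all NC and APAP livers and Ly6g in all NC livers. Stromal markers summed to 20.4 to 36.6 FPKM in NC, 25.6 to 58.1 FPKM in APAP and 25.5 to 43.0 FPKM in AMSC livers, with none of 8 called in APAP against NC. The part of these cell types in the levels of the 10 genes was not tested.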

How the data were processed

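RNA of 9 mouse livers was analyzed in 3 groups of 3, grouped by the sample labels. The authors deposited FPKM values per gene, on GRCm38 per the labels (mm10). The aligner and the counting program are not given in the sources used here. FPKM multiplied by gene length gave whole reads for 100.0% of values (within 0.1 of a step), and the authors' denominators followed size factors of those reads (median of ratios, relative spread 9.7e-12). Totals were 14920463 to 15444087 reads in NC, 13640978 to 14167230 in APAP and 13418921 to 16210930 in AMSC libraries, so that 1 read on 1 kilobase equaled 0.0578 to 0.0807 FPKM. Values near that level rest on few reads.

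A pseudocount of 1 was added before the log2 of the deposited FPKM was taken, which understates changes of low genes. The 9699 genes that averaged 1 FPKM or more were tested with limma 3.58.1 (eBayes with trend, R 4.3.3), each fit holding the 2 groups compared, two-sided, with Benjamini-Hochberg adjustment over all genes tested. Genes at an adjusted p of at most 0.05 were called, and DEGs also had to differ by 1 or more on the log2 scale. Scripts were tested on simulated data. The settings tried in turn were a pseudocount of 0.1, no filter beyond a value above 0, a mean of at least 5 FPKM, quantile normalization, scaling to summed reads, all 9 libraries in a single fit, voom on recovered reads, the replicate number as a block, eBayes without trend and leaving out each replicate. Removal of the length trend (lowess, span 0.3, 854 genes without a coding length left out) and levels per longest coding transcript were added after seeing the data.

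The 10 genes, the other lists and the tests were chosen with earlier results of these data known. All 10 genes are named, as are up to 3 called genes per list and comparison with the largest log2 fold change, and the 3 genes most correlated with Sod2, Cat, Prdx1 and Gpx1. Markers are given as counts and sums, apart from markers at 0 and from Cyp2e1 and Cyp1a2, which were named after their values were seen. Of 54409 gene identifiers shared with GENCODE vM21, 53499 (98.33%) had the same coordinates. Promoters are from RefSeq (GRCm38.p6). Deviations of same-numbered APAP and NC livers from their group means had r = 0.213, 0.160 and 0.378 for replicates 1, 2 and 3. The labels state no pairing. Livers of unlike number were not compared, so these values do not show a pairing. The number of NC replicate 3 is from its description, while its title has another date and the number 1, so the third value and the block rest on the description. AMSC shares 2 numbers with each other group, with r between -0.309 and -0.104. Figures were drawn with Python 3.11.15, numpy 2.4.6, pandas 2.3.3 and matplotlib 3.10.9.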

Additional observations from a re-analysis of the deposited data

How the results depend on the processing

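The count of called members stayed at 0 in all 3 comparisons with a pseudocount of 0.1, other filters, a single fit of 9 libraries, voom on recovered reads, no trend, and each replicate left out. With the replicate block it was also 0 in each comparison, and the block changed no call of the 10 genes. It moved the count of all genes called in AMSC against NC from 2521 to 846 (544 higher and 302 lower); AMSC shares only 2 numbers with the other groups, whose livers did not deviate together. Under the replicate block Sod1 turned to -0.12 in AMSC against APAP and Cat to 0.13 in AMSC against NC, neither called.

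Scaling to summed reads gave 3 members lower in APAP against NC (5 others turned, to -0.21 for Prdx1, -0.040 for Sod1, -0.25 for Prdx5, -0.047 for Gpx1 and -0.034 for Gpx4) and 2 lower in AMSC against NC (Prdx4 turned to -0.089 and Gpx1 to -0.13). In AMSC against APAP, Prdx5 turned to 0.047 and Gpx4 to 0.064. Quantile normalization gave 2 members lower in APAP against NC, Prdx3 (-0.49, limma adjusted p = 0.0411) and Prdx6 (-0.46, limma adjusted p = 0.0296), and turned Prdx1 to -0.27, Sod1 to -0.058, Prdx5 to -0.20, Gpx1 to -0.15 and Gpx4 to -0.043. It gave 1 lower in AMSC against NC, Cat (-0.38, limma adjusted p = 0.0482), and turned Gpx1 to -0.33, and in AMSC against APAP it turned Cat to -0.12, Prdx5 to 0.035 and Gpx4 to 0.056. Both settings move the median gene of APAP against NC (to -0.22 and -0.06). Removing the length trend gave 1 member higher in APAP against NC and 1 in AMSC against NC, and moved Sod2 to -0.0056 and Gpx4 to 0.0056 in AMSC against APAP, and Cat to 0.0034 and Prdx5 to 0.0082 in AMSC against NC. The causes were not tested.

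Leaving out 1 replicate changed no call of the 10 genes but moved several differences by over 1.5 times. In APAP against NC, Sod1 and Gpx4 were 0.36 and 0.35 without APAP replicate 1 and 0.06 and 0.07 without APAP replicate 3. Without NC replicate 3, Prdx3 was -0.24, Prdx6 -0.16 and Gpx1 0.35 in APAP against NC, and Prdx3 was -0.12, Prdx6 -0.06 and Prdx1 0.37 in AMSC against NC. It turned the sign of small differences, with ranges of -0.20 to 0.085 (Cat), -0.088 to 0.18 (Prdx1) and -0.16 to 0.18 (Prdx5) in APAP against NC. In AMSC against APAP the ranges were -0.10 to 0.18 (Cat), -0.13 to 0.15 (Gpx4), -0.20 to 0.15 (Prdx5), -0.10 to 0.20 (Sod1) and -0.021 to 0.087 (Sod2), and in AMSC against NC -0.10 to 0.062 (Cat), -0.021 to 0.21 (Gpx1) and -0.083 to 0.085 (Prdx5). Over all genes tested, AMSC against APAP called 159 higher and 208 lower, 23 and 30 with all genes above 0, 93 and 85 at a mean of at least 5 FPKM, 303 and 321 in the single fit, 289 and 404 without the length trend, and as few as 41 and 59 without AMSC replicate 3. APAP against NC called 1243 higher and 1271 lower, 692 and 626 at a mean of at least 5 FPKM, and 718 and 635 without NC replicate 2.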
